A study of Arabidopsis thaliana with 12 samples.

Results

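AP2C1 (AT2G30020) and AT1G07160 are Arabidopsis genes for protein phosphatases of the PP2C type, and their transcripts were followed in rosette leaves of the ecotype Col 5 min after mechanical wounding. The genes were chosen by locus, and each had 1 spot that the annotation of the array assigns to it, so 2 of the 20072 genes and unnamed spots tested are described here. Leaves that were wounded were compared with leaves that were not wounded, and neither group carried a mutation or a transgene that the labels name. Each of the 3 biological replicates was a pair of RNA samples from pooled plants, hybridized together on 4 two-colour Agilent arrays, of which 2 carried the wounded sample in Cy5 and 2 in Cy3. On 1 array of replicate 3, with wounded RNA in Cy3, the number of the wounded sample in its channel label is not that of the title, which was used. The tissue was the whole leaf. A change in the number of cells that express a gene and a change in RNA per cell therefore cannot be told apart.

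MAP kinase cascades carry signals from receptors at the cell surface by successive phosphorylation and are switched on by wounding and by pathogens. They are switched off again when phosphatases remove the phosphates. AP2C1 is a PP2C phosphatase with a MAP kinase interaction motif, and AT1G07160 encodes a related phosphatase.

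AP2C1 transcript was higher in wounded leaves in all 3 biological replicates, by 2.46-fold on average, while AT1G07160 averaged 1.08-fold and did not pass the test. AP2C1 rose by a log2 ratio of 1.30 ± 0.04 (SD, n = 3), with a 95% confidence interval of 1.15 to 1.44 and an adjusted p of 0.0054 (limma, Benjamini-Hochberg over all genes and spots). It was among the 7.25% of genes and spots called higher at an adjusted p under 0.05, while 7.24% were called lower. It also met the criterion of at least 2-fold with an unadjusted p of at most 0.01, as did 0.643% of all tested in the direction of a rise. Its log2 ratio ranked 30 among the 8734 named genes. Without the array of the differing label the log2 ratio of AP2C1 was 1.43 (adjusted p = 0.037, limma) and that of AT1G07160 0.11 (adjusted p = 0.52). That fit leaves replicate 3 with more arrays of wounded RNA in Cy5 than in Cy3, so the dye effect no longer cancels there. The same limit holds for every value given below without that array.

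The background-corrected signals of AP2C1 were at least 1.25 times the dim limit in both samples on all 12 arrays, where the dim limit is the 95th percentile of the signals at spots with a deposited ratio of 0 on that array. In replicate 1 the arrays that carried wounded RNA in Cy5 read 1360 and 1350 units in wounded leaves, against 421 and 465 in leaves that were not wounded. With the wounded sample in Cy3 they read 1020 and 1100 in wounded leaves, against 517 and 588. The wounded signal was the higher on each of these 4 arrays.

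Replicate 2 gave much the same levels. With the wounded sample in Cy5 the signals were 1320 and 1390 in wounded leaves, against 368 and 468 in leaves that were not wounded. With it in Cy3 they were 887 and 974 in wounded leaves, against 446 and 500. Again all 4 arrays were higher in wounded leaves.

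Replicate 3 differed. With the wounded sample in Cy5 the signals were 937 and 1060 in wounded leaves, against 147 and 196 in leaves that were not wounded. With it in Cy3 they were 347 and 385 in wounded leaves, against 365 and 376, so that the samples read nearly alike and 1 of these arrays was the only one of the 12 with a lower wounded signal. A wounded signal above that of leaves that were not wounded on at least 11 of 12 arrays was found at 9.48% of all genes and spots tested.

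**Figure D1:**
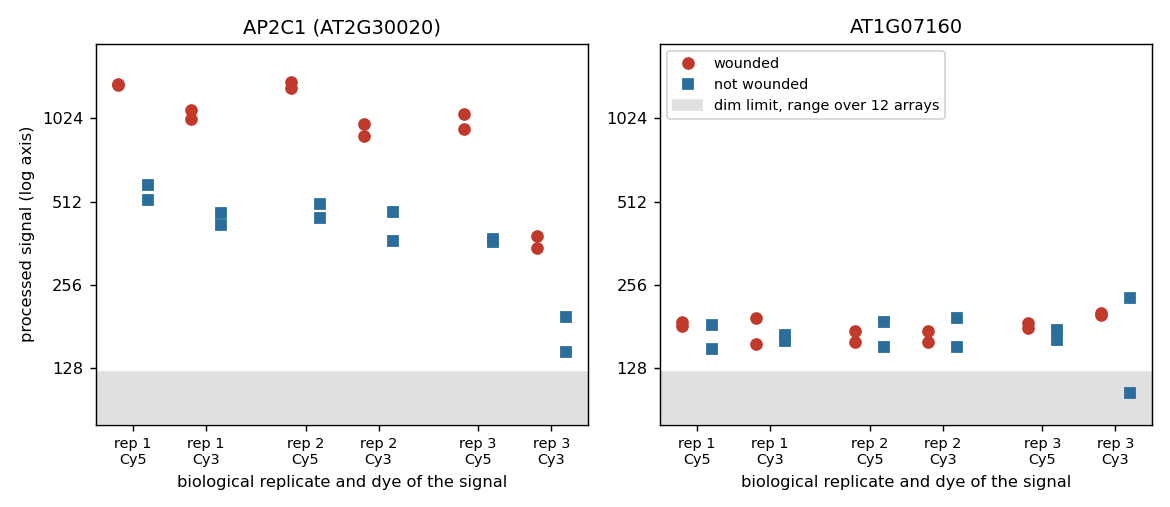
Signal of AP2C1 and of AT1G07160 on each of the 12 arrays (log axis, processed units), by biological replicate and dye, with wounded samples drawn left of samples that were not wounded. Within each replicate and dye, both AP2C1 signals of wounded leaves lie above both of leaves that were not wounded, while for AT1G07160 this holds in 1 of the 6 combinations.

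Averaged over the 4 arrays, the log2 ratio of AP2C1 was 1.28 in replicate 1, 1.34 in replicate 2 and 1.27 in replicate 3. These lie close together, although the signal of replicate 3 was lower in both samples. Its geometric mean signal over the 4 arrays was 604 units in wounded leaves and 251 in leaves that were not wounded, against 1198 and 494 in replicate 1 and 1122 and 443 in replicate 2, with wounded leaves first in each pair.

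The close replicate means hide unequal dye orientations. With the wounded sample in Cy5 the log2 ratio of AP2C1 was 1.61, 1.71 and 2.55 in replicates 1, 2 and 3, a mean of 1.96 ± 0.52 (SD, n = 3, adjusted p = 0.0079 by limma). On these arrays alone 14.1% of genes and spots were called higher and 15.7% lower. With the wounded sample in Cy3 it was 0.94, 0.98 and -0.02, a mean of 0.63 ± 0.57 (SD, n = 3), which did not pass at an adjusted p of 0.087 (limma), where 19.2% of all tested were called higher and 16.1% lower. The technical replicates of 1 replicate and orientation differed by 0.03 to 0.27 on the log2 scale, less than the orientations did in any replicate.

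**Figure D2:**
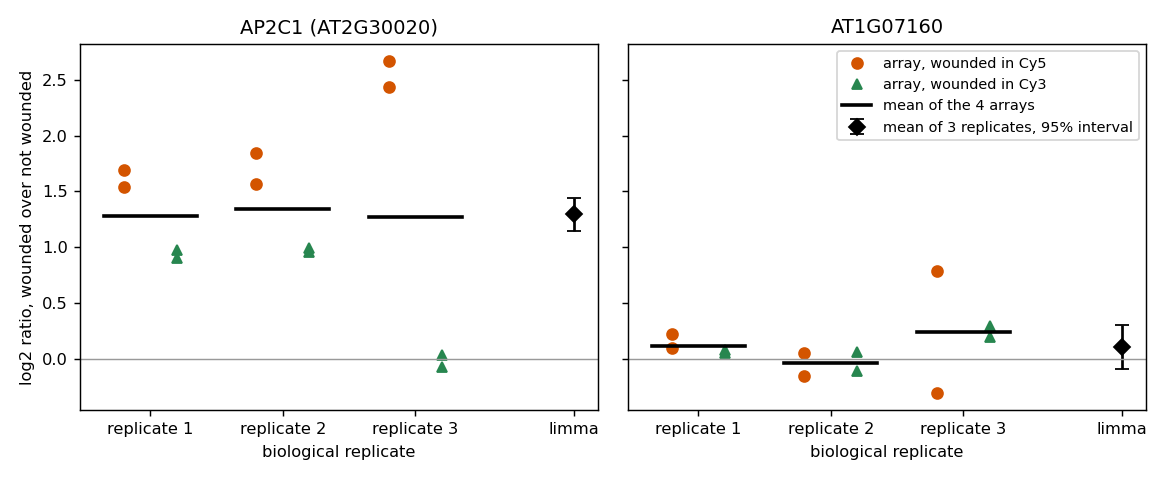
Log2 ratio of wounded over not wounded for AP2C1 and AT1G07160 in each biological replicate, by dye orientation, with the mean over the 4 arrays. The replicate means of AP2C1 lie at 1.28, 1.34 and 1.27, and its orientations lie furthest apart in replicate 3, at 2.55 and -0.02.

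The dye difference, that is, the ratio read with Cy5 on wounded RNA minus the ratio read with Cy3 on it (log2), was 0.67, 0.73 and 2.57 for AP2C1 in replicates 1, 2 and 3. Its mean of 1.33 had a 95% interval of -0.02 to 2.67 and an adjusted p of 0.12 (limma, n = 3). Without replicate 3 it was 0.70 with an adjusted p of 0.024. A dye difference that passed the test was common on these arrays, at 9.72% of genes and spots for ratios higher when Cy5 marked the wounded RNA and 14.1% for ratios higher when Cy3 did. A dye difference at least that of AP2C1 was found at 15.6% of all tested in replicate 1, 14.5% in replicate 2 and 5.95% in replicate 3. The median absolute dye difference over all tested was 0.36, 0.39 and 0.64 in replicates 1, 2 and 3, so replicate 3 had the widest dye differences over the whole array as well.

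**Figure D3:**
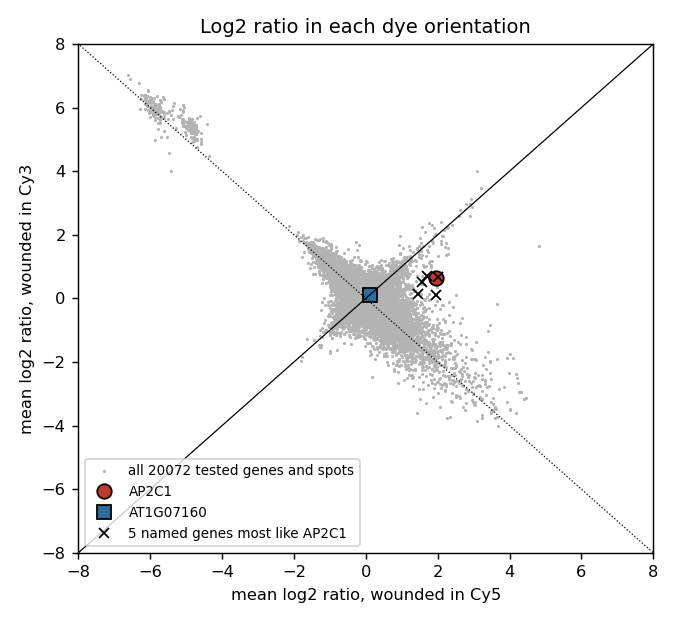
Mean log2 ratio on the arrays with wounded RNA in Cy5 (horizontal axis) against that with wounded RNA in Cy3 (vertical axis) for all tested genes and spots, with AP2C1, AT1G07160 and the 5 named genes most like AP2C1 marked. On the solid line both orientations read the same ratio and on the dotted line opposite ones. AP2C1 lies at 1.96 and 0.63, and AT1G07160 at 0.12 and 0.10.

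Because the dyes were swapped within each replicate, wounded leaves can also be set against leaves that were not wounded in the same dye, across arrays. This comparison was chosen after the data were seen, and signals were not scaled between arrays, whose median signals lay between 309 and 383 units. In Cy5, AP2C1 read 937 to 1390 units in wounded leaves and 365 to 588 in leaves that were not wounded, so the groups did not overlap, as at 2.92% of all genes and spots. The log2 ratio in Cy5 was 1.30, 1.52 and 1.43 in replicates 1, 2 and 3, a mean of 1.42 ± 0.11 (SD, n = 3) or 2.67-fold, with an adjusted p of 0.0045 (limma). It was among the 3.41% called higher in that dye, while 2.87% were called lower.

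In Cy3, AP2C1 read 347 to 1100 units in wounded leaves and 147 to 468 in leaves that were not wounded. These ranges overlap across replicates, since replicate 3 read lower in both samples, and full separation in Cy3 was found at 1.45% of all tested. Within replicates the log2 ratio in Cy3 was 1.26, 1.16 and 1.11, a mean of 1.18 ± 0.08 (SD, n = 3) or 2.26-fold, with an adjusted p of 0.020 (limma), where 0.638% of genes and spots were called higher and 0.384% lower. In each of the 6 combinations of replicate and dye, both wounded signals of AP2C1 exceeded both signals of leaves that were not wounded, as at 5.14% of all tested.

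The ratios in Cy5 and in Cy3 regroup the signals of each replicate and average to its mean ratio, so they are not independent of it. Read in a single dye, replicate 3 gave a ratio of the size seen in the others. Its Cy5 signal of AP2C1 was 2.73 times its Cy3 signal in wounded leaves and 2.18 times in leaves that were not wounded. The same ratio of dyes was 1.28 and 1.25 in replicate 1 and 1.46 and 1.14 in replicate 2, again with wounded leaves first. The dye difference of AP2C1 in replicate 3 exceeded the mean of the other replicates by 1.87 on the log2 scale, and 4.16% of all tested had an excess at least as large. The part of the dye in the values of single arrays was not tested further.

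AT1G07160 gave dimmer signals and no ratio past the test. Its signals ranged from 156 to 202 units in wounded leaves, with a median of 180, and from 104 to 230 in leaves that were not wounded, with a median of 165.5, so the groups overlapped. These signals were 1.52 to 2.46 times the dim limit in wounded leaves and 0.88 to 2 times in leaves that were not wounded. In replicate 1 the wounded signals were 181, 188, 194 and 156, against 169, 161, 183 and 150 in leaves that were not wounded on the same arrays. All 4 were higher in wounded leaves, by at most 1.17-fold.

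In replicate 2 the wounded signals of AT1G07160 were 159, 174, 159 and 174, against 153, 194, 152 and 188. In replicate 3 they were 179, 186, 199 and 202, against 104, 230, 162 and 176. The wounded signal was the higher on 9 of the 12 arrays, and 17.5% of all genes and spots were higher on at least 9. The value of 104 fell below the dim limit of its array and was the only signal of either gene to do so.

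The log2 ratio of AT1G07160 was 0.12, -0.04 and 0.24 in replicates 1, 2 and 3, and its mean was 0.11 ± 0.14 (SD, n = 3, adjusted p = 0.39 by limma). The 95% interval of its fold change ran from 0.94 to 1.24. The orientations gave 0.12 where Cy5 marked the wounded RNA and 0.10 where Cy3 did, and the dye difference was 0.02 with an adjusted p of 0.92. Technical replicates differed by up to 1.09 on the log2 scale, in replicate 3 with the wounded sample in Cy5, where the arrays gave 0.78 and -0.31. Compared within a dye, the log2 ratio was 0.08 in Cy5 (adjusted p = 0.66) and 0.13 in Cy3 (adjusted p = 0.58, limma, n = 3 each), and both wounded signals exceeded both others in 1 of the 6 combinations of replicate and dye, as in at least 1 at 71.4% of all tested.

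The log2 ratio of AP2C1 exceeded that of AT1G07160 by 1.16, 1.38 and 1.02 in replicates 1, 2 and 3, a mean of 1.19 ± 0.18 (SD, n = 3). The exact two-sided sign-flip test gave p = 0.25, the smallest that 3 replicates allow. The signals of AT1G07160 lay at 0.88 to 2.46 times the dim limit, and the part of dim signal in the difference of the genes was not tested. The mean signal over both samples stood at the 57.0 percentile of all tested for AP2C1 and at the 26.3 percentile for AT1G07160. These are signals of different probes and do not rank the genes by amount of RNA.

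The other PP2C phosphatases with a tested spot stayed closer to AT1G07160 than to AP2C1. Of the 37 PP2C genes listed, 8 had a named spot that was tested, and of these AP2C1 rose, none fell and 7 did not pass. Over all tested, 7.25% were called higher and 7.24% lower, so 1 call among 8 is near that share. The list was written by hand from general knowledge of the family, clades included, with genes added by name from the gene table. The median log2 ratio of the 8 was 0.11, against 0.00 over all tested. Without AP2C1 and AT1G07160 the other 6 ranged from -0.11 to 0.21, and limma called 0 of them, with 1 at an unadjusted p under 0.05.

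That 1 was POL (poltergeist), a PP2C known for its part in stem cell maintenance in meristems. Its log2 ratio was 0.23, 0.24 and 0.16 in replicates 1, 2 and 3, a mean of 0.21 ± 0.04 (SD, n = 3, adjusted p = 0.076 by limma), with 0.44 where the wounded sample was in Cy5 and -0.02 where it was in Cy3. It passed on the Cy5 orientation alone (adjusted p = 0.036) and in the fit of single arrays with a replicate block (adjusted p = 0.0014, limma). The Cy5 orientation alone called 14.1% of all tested higher. The fit with the replicate block takes single arrays as observations, though the 4 arrays of a replicate hold the same RNA pair. That fit called 3095 of the 20072 genes and spots higher and 3046 lower, against 1455 and 1454 in the main fit. AT1G67820, listed with AP2C1 and AT1G07160 in clade B of the family, had -0.33, 0.12 and 0.23, a mean of 0.01 ± 0.30 that crossed 0 between replicates. The other 4, AT3G51370, AT3G55050, AT3G12620 and AT3G17090, belong to the list of clade D, and of these AT3G55050 (0.14) passed with the replicate block (adjusted p = 0.0062, limma).

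**Figure D4:**
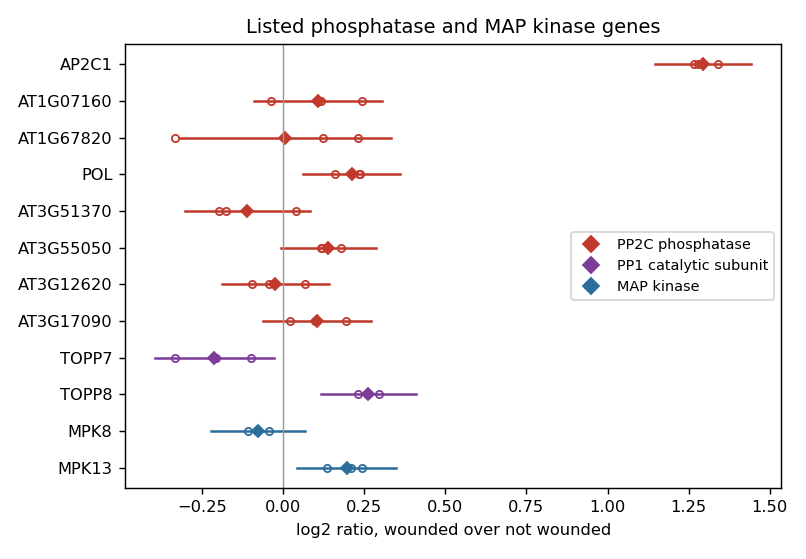
Mean log2 ratio of wounded over not wounded for the listed phosphatases and MAP kinases with a tested spot, with 95% confidence intervals and the value of each biological replicate as points. AP2C1 stands at 1.30, and the other PP2C genes lie between -0.11 and 0.21.

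No gene of the clade A list, the abscisic acid co-receptors, nor of the lists of dual-specificity phosphatases and of MAP kinase kinases and their upstream kinases had a named spot. Of the 18 catalytic subunits of PP1, PP2A, PP4 and PP6, 2 had a named spot that was tested. TOPP8, a PP1 catalytic subunit, rose by 0.26 ± 0.03 (SD, n = 3, adjusted p = 0.046 by limma), a call that was lost on leaving out any of the replicates (adjusted p from 0.054 to 0.25) or the array of the differing label (0.12). TOPP7, another PP1 subunit, did not pass at -0.21 ± 0.12 (adjusted p = 0.11), but was called lower with the replicate block (adjusted p = 0.015, limma).

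Of the 20 MAP kinases listed, 2 had a named spot that was tested. The others could be among the 11338 unnamed spots tested, as could the other listed genes without a named spot. These values therefore give no view of the MAP kinases as a whole. The ratio of MPK8 stood at -0.08 ± 0.03 on the log2 scale (SD, n = 3, adjusted p = 0.39 by limma) and that of MPK13 at 0.20 ± 0.06 (adjusted p = 0.093). MPK13 was below the dim limit on 3 arrays in wounded leaves and on 5 in leaves that were not wounded.

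In the gene order of assembly TAIR10.1, AP2C1 and AT1G07160 each lie beside a MAP kinase kinase kinase gene, MAPKKK14 after AP2C1 and MAPKKK13 before AT1G07160. Neither kinase gene had a named spot. Among the 5 genes on either side of AP2C1, 4 were tested. TBL45, a gene of the trichome birefringence-like family and its neighbour on the other side, had the highest log2 ratio of them, 0.41 ± 0.29 (SD, n = 3, adjusted p = 0.095 by limma). It was 0.24 without replicate 1 and passed with the replicate block (adjusted p = 0.0021). Beside AT1G07160, 2 of 10 neighbours were tested, STN1 and AT1G07170, and both lay between -0.03 and 0.05. None of the 6 tested neighbours was called by limma over the 3 replicates, where 7.25% of all tested were called higher and 7.24% lower, and TBL45 alone was under 0.05 before adjustment.

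The named genes most like AP2C1 over the 12 arrays, by the root mean square difference of their log2 ratios, were AT1G74440 (0.32), AT5G63130 (0.35), AT1G22250 (0.39), AT2G41640 (0.48) and AT3G27210 (0.53). The median of that difference over all named genes was 1.57. Their mean log2 ratios were 1.34, 1.20, 1.04, 1.04 and 0.80 in the same order. Since the 5 were picked for ratios near those of AP2C1 on the same arrays, their direction and their dye orientations follow from the choice and are a description only. The log2 ratio of AT1G74440 was 2.01 where Cy5 marked the wounded RNA and 0.67 where Cy3 did, close to that of AP2C1, and that of AT3G27210 was 1.45 and 0.15, in the same order.

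For AT1G07160 the most like were AT3G63090 (0.15), AT5G40040 (0.20), AT2G42950 (0.20), AT1G05960 (0.21) and AT1G44835 (0.22), against a median over all named genes of 0.50. None of these 5 passed the test, where 7.25% of all tested were called higher and 7.24% lower. They were picked for ratios near those of AT1G07160 on the same arrays, so this follows from the choice and is a description only.

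Marker signals were read for the labelled tissue. They cannot decide it, since the leaf markers tested and the root marker EXPA7 alike lay above the dim limit on all 12 arrays. Of 11 leaf markers, 3 were tested, all above the dim limit in both samples on all 12 arrays. The signals of these markers are not compared with each other. LHCB4.1, an antenna protein of photosystem II, had a geometric mean signal of 286875 units in wounded leaves and 293111 in leaves that were not wounded. RCA, the activase of Rubisco, had 135194 and 184674 in the same order and was called lower (log2 ratio -0.45, adjusted p = 0.041 by limma), though not without replicate 2 (0.18), replicate 3 (0.13) or the array of the differing label (0.099). PORB, a protochlorophyllide oxidoreductase, had 5706 and 2463 and was called higher (1.21, adjusted p = 0.015), though not (0.054) when the array of the differing label was left out. Of 8 root markers, 2 were tested and not called. EXPA7 was above the dim limit on all 12 arrays, and BGLU21 was below it on 6 arrays in wounded leaves and on 3 in leaves that were not wounded. No flower or seed marker on the list had a named spot. Over the whole series an array had 1129 to 2714 spots of ratio 0 and a dim limit of 81 to 124 units.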

How the data were processed

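The authors extracted the images with Agilent Feature Extraction 8.1, and the intensities they deposited are background-subtracted and scaled between the dyes, on housekeeping genes as the methods state. They also deposited log10 ratios of Cy5 over Cy3, used here for the filter and as an alternative. Both intensities of a spot gave its log2 ratio, turned by the channel labels so that wounded stands over not wounded. The 4 arrays of a replicate hold the same RNA pair and were averaged. A spot entered the test if in none of the 6 dye-swap pairs both arrays had a deposited ratio of 0. The test of the mean of 3 replicates was that of limma (version 3.58.1, lmFit and eBayes, run in R 4.3.3) adjusted by Benjamini-Hochberg across the 20072 genes and spots tested. The study's own error model was not used here.

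Control and background flags were not used here. Genes came from the platform annotation (9335 of 22575 spots with 1 gene, 40 with several, 13200 with none), updated by Entrez identifier (9317 matched) with a table of assembly TAIR10.1. Named are AP2C1 and AT1G07160, the called and up to 3 further genes of each phosphatase and MAP kinase list, tested neighbours within 5 genes and the 5 most like genes. The genes, lists and tests were chosen with earlier results of these data known. Lists were written by hand. The replicate block is an alternative fit of the 12 arrays with a dye term and replicates as a random term. The fit was also run on simulated data, in which the dye effect of a spot was the same in every replicate. That run therefore cannot show how the fit behaves where dye differences vary between replicates, as for AP2C1. The precision is limited by the number of arrays and replicates and, for single ratios, by the signal of the spot.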

Additional observations from a re-analysis of the deposited data

How the results depend on the processing

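AP2C1 had a higher signal in wounded leaves under every alternative tried, and AT1G07160 did not pass the test under any. The log2 ratio of AP2C1 lay between 1.27 and 1.31 with 1 replicate left out. It did not pass with the wounded sample in Cy3 only (0.63, adjusted p = 0.087 by limma) nor without the replicate block, where wounded and not wounded signals were fitted as unpaired groups (1.30, adjusted p = 0.51). With a replicate block over the 12 arrays it was 1.30, with a standard error of 0.17 against 0.057 in the main fit. Both samples of a replicate share each array, and the main fit keeps that pairing. With 1 replicate left out, the dye difference of AP2C1 lay between 0.70 and 1.65 and that of AT1G07160 between -0.018 (without replicate 1) and 0.041.

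Counts over all genes and spots moved more. Against 1455 higher and 1454 lower, there were 2837 and 3145 with the wounded sample in Cy5 only, 3847 and 3234 with it in Cy3 only, 685 and 576 with both samples in Cy5, 128 and 77 with both in Cy3, 173 and 82 without the array of the differing label, 3095 and 3046 with the replicate block, 27 and 0 without it, and 129 and 27 at 2-fold with an unadjusted p of at most 0.01. With 1 replicate left out they ran from 139 to 1479 higher and from 51 to 1683 lower, lowest without replicate 2. Of the PP2C genes 2 were higher with the wounded sample in Cy5 only, 0 with it in Cy3 only, 3 with the replicate block (AP2C1, POL and AT3G55050) and 0 without it. Below the threshold, the sign turned for several listed genes, and not every gene was followed through all alternatives. AT1G67820 had -0.22 with the wounded sample in Cy3 only and -0.080 with both in Cy3. With 1 replicate left out it had -0.11 to 0.18, negative without replicate 2 or 3. POL had -0.018 and AT3G17090 -0.0034 with the wounded sample in Cy3 only. MPK8 had 0.32 and AT3G51370 0.10 with it in Cy5 only. The cause was not tested.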
